A study of Mus musculus with 12 samples.

Results

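The 34 genes described here encode proteins of homologous recombination, of the Fanconi pathway and of the checkpoint kinase pathway that DNA damage switches on. They were chosen by name, with earlier results of these data known, and all 34 had a row among the 37991 mouse genes counted in each library. The cells were MEL cells, an erythroleukemia line that matures toward red cells when induced, and every library came from induced cells. There were 4 groups of 3 libraries. The FL group was LDB1 knockdown cells that carried a construct for full-length LDB1. The delta45 group was LDB1 knockdown cells that carried a construct named Ldb1 delta 4/5. The KD group was LDB1 knockdown cells with no construct named. The control group was labelled only as control. FL and delta45 therefore share the knockdown with KD, and for control no knockdown is named. LDB1 is an adaptor protein that holds erythroid transcription factors such as GATA1 and TAL1 in one complex. The labels do not say whether a line is 1 clone or whether replicates were grown apart. The p-values reflect the scatter of these 12 libraries, and that scatter may be technical.

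Each library held between 8783970 and 20464959 reads on genes, and 5946 to 56673 of them fell on the 34 genes. All 34 passed the filter on low counts. Ldb1 itself averaged 3439 CPM in FL, 765 CPM in delta45, 130 CPM in KD and 718 CPM in control, so the constructs were compared at unequal Ldb1 levels. CPM here means reads of a gene scaled to a common library total after TMM scaling. Genes were called by edgeR's quasi-likelihood test at a Benjamini-Hochberg adjusted p under 0.05 over the 12837 genes tested. Changes are log2 values with the standard error (SE). The erythroid markers fixed for the cell type were read in every library, with a summed level of 26990 to 35120 CPM in FL, 3410 to 3914 CPM in delta45, 3130 to 6322 CPM in KD and 11680 to 11720 CPM in control. Markers of myeloid, mast, lymphoid and stromal cells stayed scarce: their highest summed level in any library was 11.1 CPM for 6 myeloid, 5.12 CPM for 4 mast and basophil, 45.3 CPM for 6 lymphoid and 9.83 CPM for 5 stromal and endothelial genes. In FL and in delta45 up to 4 of the 6 myeloid and up to 4 of the 6 lymphoid markers had 0 reads in a library. The 5 megakaryocyte markers summed to 2632 to 2773 CPM in FL, 133 to 154 CPM in delta45, 752 to 806 CPM in KD and 818 to 917 CPM in control. In bulk RNA, fewer cells that express a gene and less RNA per cell cannot be told apart.

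Homologous recombination repairs a broken chromosome by copying the intact sister chromatid. Nucleases trim the broken end, BRCA1, PALB2 and BRCA2 prepare the single strand for strand exchange, and RAD54 and the proteins of Rad51b, Rad51c, Rad51d, Xrcc2 and Xrcc3 help it to pair with the sister. The Fanconi pathway clears crosslinks between the strands: a core complex attaches ubiquitin to FANCD2 and FANCI, and recombination finishes the repair. ATM and ATR sense damage and stalled forks and act through CHK2 and CHK1 to hold the cell cycle. Many of these genes are read mainly in cells that replicate DNA, and red cell precursors stop dividing as they mature.

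Most of the 34 genes were lower in FL than in KD, and a majority were higher in delta45 than in KD. Against KD, FL had 28 of them lower and 1 higher, where 31.7% of all tested genes were called lower and 26.3% higher. Their median log2 change was -1.10, beside -0.06 over all tested genes. Delta45 went the other way against KD, with 21 higher and 1 lower, where 29.2% of all genes were called higher and 30.7% lower, and a median log2 change of 0.69 beside -0.01 over all genes. Both comparisons share the KD libraries. FL against delta45 had 33 of the 34 lower and 0 higher by edgeR, where 27% of all genes were called lower and 25.8% higher. The median log2 change there was -1.85, beside -0.01 over all genes. Among the 34, 17 were lower in FL than in KD and also higher in delta45 than in KD, a pattern held by 4.69% of all tested genes.

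The separation was visible library by library. In 27 of the 34 genes all 3 FL libraries lay below the other 9 libraries, which was so for 13.4% of all tested genes. In 18 of them all 3 delta45 libraries lay above the other 9, against 14.9% of all genes. No gene of the 34 had its FL libraries above the others, which 11.1% of all genes had, or its delta45 libraries below the others, which 14.1% of all genes had. The group mean was lowest in FL for 30 genes, in KD for 3 and in control for 1. It was highest in delta45 for 25 genes, in KD for 5 and in control for 4. These orders of the means were counted for the 34 genes only, so no share over all tested genes stands beside them. The KD libraries spread most, with a median coefficient of variation over the 34 genes of 9.9% in FL, 7.89% in delta45, 19.2% in KD and 12.2% in control. KD replicate 1 was the highest KD library for 25 of the 34 genes, a count that was not made over all tested genes.

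**Figure D1:**
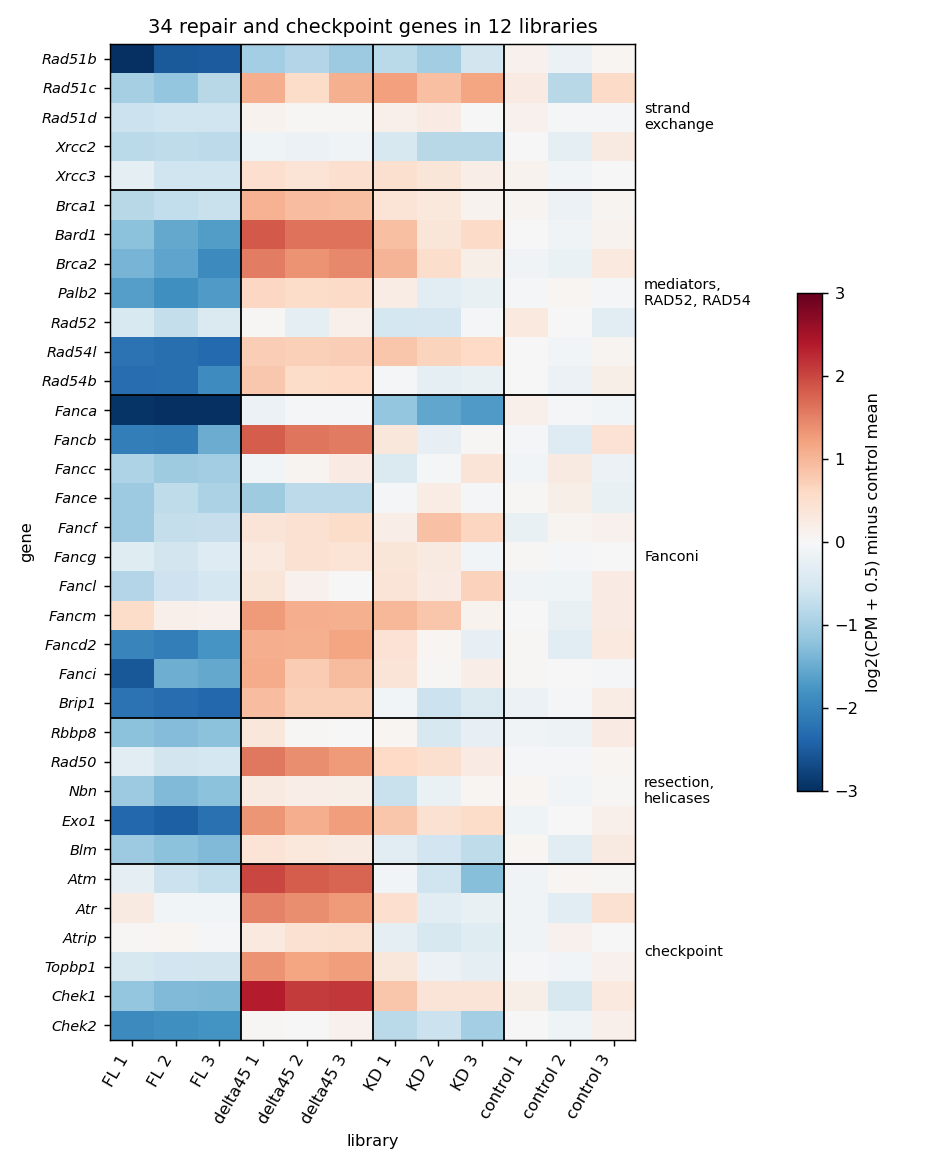
Each row is a gene, grouped by role, and each column a library. Colour is log2(CPM + 0.5) minus the mean of the 3 control libraries, on a scale that ends at -3 and 3. The FL columns are blue in most rows and the delta45 columns red in most, with Fance and Rad51b blue in both and Atr and Atrip near white in FL.

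Scaling bears on the FL comparisons. With library totals in place of TMM, the shift of the all-gene median was -0.27 log2 in FL against KD, and 26.7% of all called genes were then higher, against 45.4% with TMM. In FL against delta45 the shift was -0.27 and the share 29.2%, against 48.8% with TMM, and in FL against control -0.22 and 31.8%, against 47.4%. No called direction among the 34 genes turned under either scaling. Reads outside genes made up 3.502 to 4.962% of the tallied reads in FL, 5.48 to 6.13% in delta45, 2.12 to 3.08% in KD and 2.999 to 3.19% in control, and reads that aligned to several places 42.3 to 47.1%, 38.7 to 39.2%, 42.7 to 48.5% and 50.6 to 53.3% in the same groups. Their part in the changes was not tested. Across the 34 genes, the log2 change in delta45 against KD and the exon length had a Spearman correlation of 0.414, beside 0.274 across 12490 tested genes. In FL against KD it was 0.0882 across the 34, beside 0.212 across the 12490. These correlations are across genes of the same libraries, and genes are not independent replicates.

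The promoter sequences of 26 of the 34 genes were found in the RefSeq table (build GRCm38.p6), as 29 windows from 250 bases before to 50 bases after a start. They were searched on both strands for the E2F words TTTGGCG or TTTCGCG or TTTCCCG, and for CCAAT. E2F factors drive genes of the S phase, and CCAAT is read by NF-Y. An E2F word stood in 11 of the 29 windows (37.9%), and in 5.58% of the 32851 windows in the table. CCAAT stood in 18 of the 29 (62.1%), and in 37.4% of all. By gene, 16 of the 26 matched genes held CCAAT. The overlapping windows of Rad51b and those of Rad54l repeat the same CCAAT match, and those of Rad51b also the same E2F word. The cell cycle word TTTGAA stood in 2 of the 29 (6.9%, against 17.9% of all), the GATA words AGATAA or TGATAA in 1 (3.45%, against 18.6%) and the E-box CACGTG in 0 (against 7.15%). These are matches of letters and show neither binding nor a cause. The windows of 3 genes that were lower in FL than in delta45, Brip1, Chek1 and Topbp1, are printed beside that of Fance, the 1 gene of the 34 not called there. They were picked after their values were seen, and capitals mark the E2F and CCAAT matches. All 3 printed lower genes hold an E2F word, but only 9 of the 26 matched genes do. Fanca, Fancb and Rad54l, also lower in FL than in delta45, hold 0 E2F words in their windows. The printed windows therefore do not stand for the lower genes at large.
Brip1, chr11:86201144-86201443, minus strand: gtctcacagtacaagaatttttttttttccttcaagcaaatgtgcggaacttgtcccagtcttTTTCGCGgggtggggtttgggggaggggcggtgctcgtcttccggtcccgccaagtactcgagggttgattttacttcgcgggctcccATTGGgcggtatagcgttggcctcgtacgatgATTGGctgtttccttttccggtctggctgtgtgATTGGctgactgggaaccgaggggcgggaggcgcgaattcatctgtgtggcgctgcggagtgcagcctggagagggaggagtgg
Chek1, chr9:36726609-36726908, minus strand: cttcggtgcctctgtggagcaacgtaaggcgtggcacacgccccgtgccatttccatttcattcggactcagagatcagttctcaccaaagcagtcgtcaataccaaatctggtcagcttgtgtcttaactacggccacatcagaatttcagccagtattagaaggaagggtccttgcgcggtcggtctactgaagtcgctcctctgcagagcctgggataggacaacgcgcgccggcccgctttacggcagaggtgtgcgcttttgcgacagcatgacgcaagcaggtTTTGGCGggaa
Topbp1, chr9:103305077-103305376, plus strand: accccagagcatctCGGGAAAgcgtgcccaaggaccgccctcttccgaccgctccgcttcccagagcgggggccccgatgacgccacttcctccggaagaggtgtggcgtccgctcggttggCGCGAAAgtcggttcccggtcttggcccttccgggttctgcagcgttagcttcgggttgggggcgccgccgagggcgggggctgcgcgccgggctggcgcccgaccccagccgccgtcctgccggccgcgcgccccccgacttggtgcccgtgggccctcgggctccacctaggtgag
Fance, chr17:28313280-28313579, plus strand: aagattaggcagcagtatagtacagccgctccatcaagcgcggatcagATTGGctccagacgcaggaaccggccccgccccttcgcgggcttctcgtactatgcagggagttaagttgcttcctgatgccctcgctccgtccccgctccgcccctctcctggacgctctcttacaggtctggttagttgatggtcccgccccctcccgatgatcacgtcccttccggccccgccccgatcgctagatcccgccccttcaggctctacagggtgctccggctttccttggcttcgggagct
Brip1 holds 1 E2F word and 3 CCAAT matches, Chek1 holds 1 E2F word, Topbp1 holds 2, and Fance holds 1 CCAAT match and 0 E2F words.

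The genes Rad51b, Rad51c, Rad51d, Xrcc2 and Xrcc3, which assist strand exchange, were lower in FL than in KD in 4 of 5 cases and lower in FL than in delta45 in all 5. Rad51b stood at 0.417, 0.814 and 0.824 CPM in FL, 3.23, 3.58 and 3.03 CPM in delta45, 3.77, 3.15 and 4.64 CPM in KD and 7.72, 6.12 and 7.35 CPM in control. The FL libraries lay lowest, the control libraries highest, and delta45 overlapped KD. Over its 3 libraries FL held 25 Rad51b reads. The level was 5.45-fold below that of KD (log2 change -2.45 ± 0.287, edgeR adjusted p = 1.26e-05). Rad51c, also scarce, stood at 0.833, 0.698 and 1.0 CPM in FL, 5.20, 3.39 and 5.07 CPM in delta45, 5.79, 4.45 and 5.52 CPM in KD and 2.68, 1.0 and 3.47 CPM in control. It was 6.03-fold lower in FL than in KD (log2 change -2.59 ± 0.393, edgeR adjusted p = 0.000105). Control replicate 2 lay just above the highest FL library. Without control replicate 3, Rad51c in FL against control had an edgeR adjusted p of 0.0641, against 0.00722 with all libraries.

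Xrcc3, whose protein pairs with RAD51C, was at 14.3, 11.6 and 11.5 CPM in FL, 25.3, 23.6 and 25.2 CPM in delta45, 24.9, 23.0 and 20.4 CPM in KD and 19.0, 16.6 and 17.6 CPM in control. FL lay below every other library. Rad51d behaved alike, at 20.3 ± 0.347 CPM in FL and 34.4 ± 3.04 CPM in KD (SD, n = 3 each), with a log2 change of -0.76 ± 0.111 (edgeR adjusted p = 7.67e-05). Xrcc2 was the exception against KD. It stood at 26.0, 26.7 and 26.2 CPM in FL, 42.1, 40.3 and 42.2 CPM in delta45, 32.6, 25.3 and 25.4 CPM in KD and 45.9, 38 and 55 CPM in control. FL lay within the range of KD, and both lay below delta45 and control. In delta45 Xrcc2 rose against KD (log2 change 0.58 ± 0.142, edgeR adjusted p = 0.0036), the 1 gene of these 5 that was called there.

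Among the 7 genes that mediate strand exchange, anneal strands or act as its motors, 6 were lower in FL than in KD and 5 were higher in delta45 than in KD. BRCA1 and BARD1 form a ubiquitin ligase that brings PALB2 and BRCA2 to the break. Bard1 stood at 12.8, 10.2 and 9.30 CPM in FL, 111, 95.7 and 95.3 CPM in delta45, 58.1, 39.6 and 46.0 CPM in KD and 30.8, 28.6 and 32.9 CPM in control. The 4 groups did not overlap, from FL at the bottom through control and KD to delta45. Bard1 was 9.39-fold lower in FL than in delta45 (log2 change -3.23 ± 0.168, edgeR adjusted p = 7.07e-09). Brca1 itself moved less, at 42.4, 45.6 and 47.4 CPM in FL, 156, 144 and 143 CPM in delta45, 100.3, 94.1 and 81.2 CPM in KD and 80.9, 67.7 and 80.0 CPM in control. Delta45 stood above and FL below all other libraries. The log2 change in FL against delta45 was -1.71 ± 0.113 (edgeR adjusted p = 5.12e-08).

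Brca2, a mediator of strand exchange, averaged 10.2 ± 1.88 CPM in FL, 88.3 ± 6.31 CPM in delta45, 49.5 ± 15.0 CPM in KD and 32.5 ± 6.36 CPM in control (SD, n = 3 each). Palb2, its partner, averaged 5.14 ± 0.336 CPM in FL, 27.4 ± 0.623 CPM in delta45, 17 ± 3.73 CPM in KD and 18.2 ± 0.563 CPM in control. Both were lower in FL and higher in delta45 than in KD. Rad54l, a motor that helps strands to pair, stood at 11.5, 11.0 and 10.5 CPM in FL, 91.6, 89.5 and 91.3 CPM in delta45, 97.5, 87.4 and 82.8 CPM in KD and 54.9, 51.8 and 57.7 CPM in control. FL was far below the rest, while delta45 lay inside the range of KD. The fall in FL against KD was 8.13-fold (log2 change -3.02 ± 0.109, edgeR adjusted p = 1.19e-09), and delta45 against KD was not called (log2 change 0.03 ± 0.0963, edgeR adjusted p = 0.834).

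Rad54b, a paralog of Rad54l, stood at 2.40, 2.44 and 3.30 CPM in FL, 24.3, 20.2 and 20.8 CPM in delta45, 13.3, 11.2 and 11.6 CPM in KD and 13.4, 12 and 15.5 CPM in control. Unlike Rad54l, its KD and control libraries overlapped and its delta45 libraries lay above both. Rad52, which anneals strands and is not needed for most recombination in mouse, averaged 11.5 ± 1.27 CPM in FL, 16.5 ± 2.42 CPM in delta45, 13.2 ± 2.70 CPM in KD and 16.9 ± 3.65 CPM in control (SD, n = 3 each). Neither construct changed its level against KD past the threshold. Its call in FL against delta45 (log2 change -0.52 ± 0.199, edgeR adjusted p = 0.0414) was lost without any 1 library of FL or delta45 except delta45 replicate 2, and without KD replicate 2 or control replicate 2, with adjusted p-values of 0.0542 to 0.164.

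**Figure D2:**
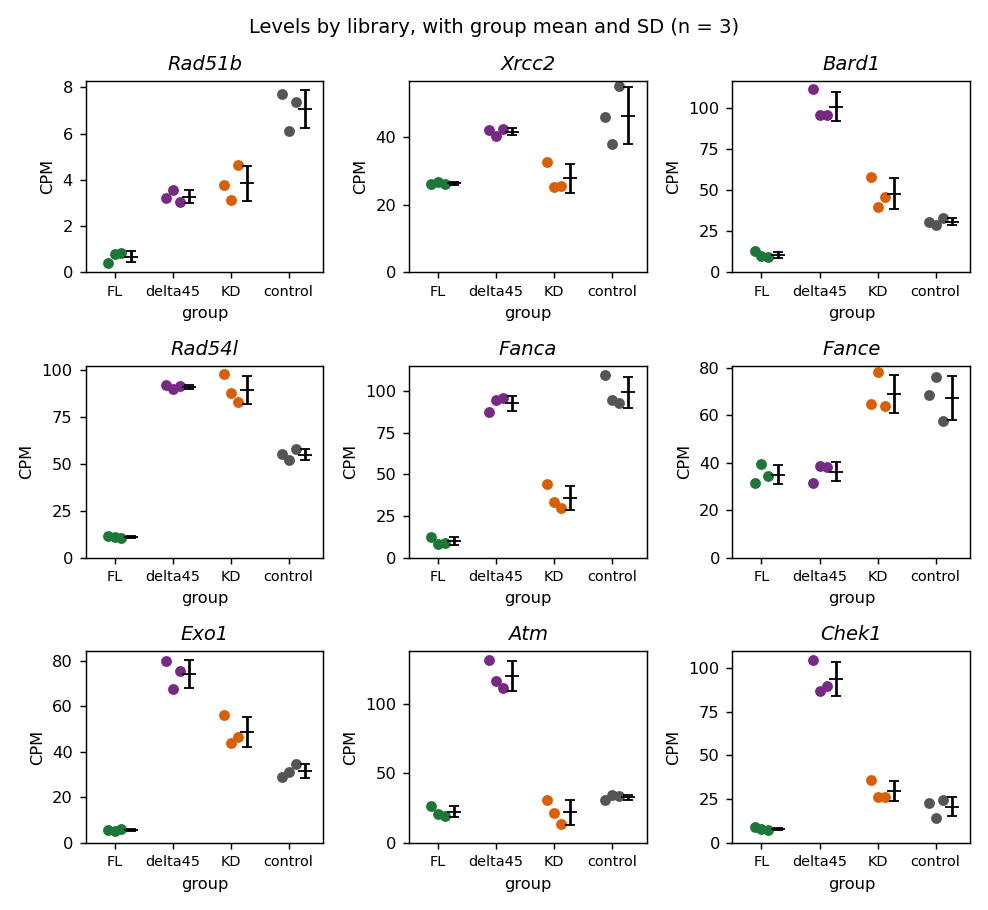
CPM of 9 of the genes in each library, by group, with the group mean and SD (bars, n = 3) beside the points. FL lies lowest for Rad51b, Bard1, Rad54l, Fanca, Exo1 and Chek1, delta45 lies highest for Bard1, Exo1, Atm and Chek1, and Fance is low in FL and delta45 alike.

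The 11 Fanconi genes were lower in FL than in KD in 10 cases, and in delta45 5 were higher and 1 lower than in KD. Fancd2 and Fanci encode the pair that the core complex marks with ubiquitin. Fancd2 stood at 4.79, 4.42 and 5.65 CPM in FL, 44.0, 43.3 and 46.9 CPM in delta45, 27.8, 21.1 and 17.1 CPM in KD and 20.9, 16.1 and 24.8 CPM in control. KD and control overlapped, FL lay below and delta45 above them. In FL against delta45 Fancd2 was 8.91-fold lower (log2 change -3.16 ± 0.21, edgeR adjusted p = 5.6e-08). Fanci followed at 3.74 ± 1.53 CPM in FL, 27.5 ± 3.34 CPM in delta45, 16.3 ± 2 CPM in KD and 14.0 ± 0.39 CPM in control (SD, n = 3 each). Of its exon bases 16% overlap those of Polg on the opposite strand, and the counts carry no strand.

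Brip1, a helicase that binds BRCA1, stood at 5.52, 5.23 and 4.94 CPM in FL, 52.6, 45.1 and 44.8 CPM in delta45, 25.6, 17.4 and 20.2 CPM in KD and 24.0, 26.6 and 31.9 CPM in control. It was 4.05-fold lower in FL than in KD and 2.25-fold higher in delta45 than in KD. Fancb, a core complex gene on the X chromosome, stood at 2.40, 2.33 and 3.83 CPM in FL, 42.3, 36.2 and 35.4 CPM in delta45, 14.8, 9.77 and 11.9 CPM in KD and 11.4, 8.73 and 15.9 CPM in control. Its fall of 12.8-fold in FL against delta45 was, with that of Exo1, the widest of the 34 genes in that comparison (log2 change -3.68 ± 0.264, edgeR adjusted p = 1.1e-07). Fanca, another core gene, had a pattern of its own. It stood at 12.5, 8.37 and 9.0 CPM in FL, 87.5, 94.6 and 95.5 CPM in delta45, 43.9, 33.2 and 30.0 CPM in KD and 109.8, 94.8 and 92.7 CPM in control. KD lay below control and delta45 overlapped control, whereas FL lay below all. Fanca was 2.77-fold lower in KD than in control (log2 change -1.47 ± 0.162, edgeR adjusted p = 1.22e-05), and delta45 against control was not called (log2 change -0.10 ± 0.156, edgeR adjusted p = 0.597).

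Fance, the core subunit that contacts FANCD2, went its own way in delta45. It stood at 31.2, 39.3 and 34.4 CPM in FL, 31.6, 38.8 and 38.3 CPM in delta45, 64.9, 78.4 and 64.0 CPM in KD and 68.4, 76.1 and 57.4 CPM in control. FL and delta45 overlapped, as did KD and control, and the first pair lay below the second. It was 1.98-fold lower in FL than in KD (edgeR adjusted p = 7.5e-05) and 1.91-fold lower in delta45 than in KD (edgeR adjusted p = 0.000123). Fancm, the translocase that anchors the core complex on DNA, was not called in FL against KD, at 34.8 ± 6.14 CPM in FL and 46.2 ± 13.7 CPM in KD (SD, n = 3 each). Without KD replicate 3, its lowest KD library, that change was called (log2 change -0.64, edgeR adjusted p = 0.00461), as it was with library totals in place of TMM (0.0165). In delta45 against KD Fancm was not called either (edgeR adjusted p = 0.0634), but was without KD replicate 1 (0.0108), with no low-count filter (0.037) and with a replicate block (0.0429). Fancc, Fancf, Fancg and Fancl, the other core genes, were lower in FL than in KD by 1.55-fold (Fancg) to 2.92-fold (Fancf), and none of these 4 was called in delta45 against KD, although Fancg was without KD replicate 1 (edgeR adjusted p = 0.0422).

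End resection and helicase genes were lower in FL than in KD in 5 of 5 cases, and 4 of 5 were higher in delta45. Exo1, a nuclease that lengthens the resected end, stood at 5.73, 5.35 and 6.24 CPM in FL, 79.7, 67.7 and 75.5 CPM in delta45, 56.3, 43.6 and 46.4 CPM in KD and 28.7, 31.2 and 34.7 CPM in control. The groups did not overlap. Its fall of 8.39-fold in FL against KD was the widest of the 34 genes in that comparison (log2 change -3.07 ± 0.145, edgeR adjusted p = 6.19e-09). Rad50 and Nbn encode parts of the MRN complex, which binds broken ends first. Rad50 stood at 54.9, 47.4 and 48.8 CPM in FL, 211, 184 and 171 CPM in delta45, 106.7, 98.6 and 83.6 CPM in KD and 67.9, 68.8 and 73.3 CPM in control. Nbn stood at 13.1, 11.0 and 11.9 CPM in FL, 34.6, 33.1 and 32.6 CPM in delta45, 17.8, 24.9 and 29.9 CPM in KD and 29.7, 27.1 and 29.1 CPM in control.

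Rad50 kept the groups apart, while the KD and control libraries of Nbn overlapped. The rise of Nbn in delta45 against KD (log2 change 0.47 ± 0.16, edgeR adjusted p = 0.0217) had an adjusted p of 0.0515 without delta45 replicate 1. Blm, the helicase that dissolves crossed strands, stood at 49.4, 44.5 and 41.9 CPM in FL, 139, 131 and 126 CPM in delta45, 84.0, 70.0 and 61.8 CPM in KD and 109.5, 83.2 and 127 CPM in control. FL was lowest, and the widest scatter was in control. Rbbp8, which starts resection, averaged 18.7 ± 0.458 CPM in FL, 49.7 ± 6.52 CPM in delta45, 39.1 ± 7.63 CPM in KD and 45.6 ± 7.13 CPM in control (SD, n = 3 each). It was lower in FL than in KD and was not called in delta45 against KD (edgeR adjusted p = 0.073, but 0.00735 without KD replicate 1 and 0.0423 without control replicate 3).

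Of the 6 checkpoint genes, 3 were lower (50%) and 1 higher (16.7%) in FL than in KD, beside 31.7% and 26.3% of all tested genes, and 6 of 6 were higher in delta45 than in KD, beside 29.2% of all. Chek1, the kinase that ATR switches on, stood at 8.75, 7.67 and 7.53 CPM in FL, 105, 87.2 and 89.6 CPM in delta45, 36, 26.4 and 26.3 CPM in KD and 22.8, 14.3 and 24.6 CPM in control. FL lay below and delta45 above all others. Chek1 was 11.8-fold lower in FL than in delta45 (log2 change -3.56 ± 0.208, edgeR adjusted p = 1.82e-08). Chek2, the kinase that ATM switches on, stood at 10.0, 10.6 and 10.9 CPM in FL, 40.2, 39.1 and 42.9 CPM in delta45, 21.9, 24.6 and 19.0 CPM in KD and 38.7, 35.4 and 43.2 CPM in control. Here KD lay below control, and delta45 overlapped control.

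Atm and Atr, the kinases at the head of the pathway, did not move with Chek1 in FL against KD. In FL against delta45 both were called lower, with log2 changes of -2.43 for Atm and -1.36 for Atr. Atm stood at 26.7, 20.7 and 19.5 CPM in FL, 132, 116 and 111 CPM in delta45, 31.0, 21.3 and 13.2 CPM in KD and 30.5, 34 and 33.6 CPM in control. FL and KD overlapped (log2 change 0.02 ± 0.234, edgeR adjusted p = 0.956). Delta45 was 5.46-fold above KD, the widest rise of the 34 genes in that comparison (log2 change 2.45 ± 0.235, edgeR adjusted p = 3.12e-06). Atr averaged 34.4 ± 5.11 CPM in FL, 88.3 ± 6.69 CPM in delta45, 34 ± 11.5 CPM in KD and 34.3 ± 10.3 CPM in control (SD, n = 3 each), so that delta45 alone stood apart. Atrip, the partner of ATR, stood at 30.9, 31.4 and 29.6 CPM in FL, 37.2, 41.6 and 42.5 CPM in delta45, 24.3, 21.3 and 23.2 CPM in KD and 27.9, 32.8 and 29.9 CPM in control.

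Atrip was the 1 gene of the 34 higher in FL than in KD (log2 change 0.42 ± 0.112, edgeR adjusted p = 0.0064), a call that library totals in place of TMM took away (log2 change 0.14, edgeR adjusted p = 0.314). Its call in FL against delta45 had an edgeR adjusted p of 0.00764, and 0.0529 without delta45 replicate 3. Its exons overlap those of Trex1 over 16% of their bases. Topbp1, which switches on ATR, stood at 185, 172 and 178 CPM in FL, 658, 588 and 622 CPM in delta45, 329, 227 and 210 CPM in KD and 250.4, 243 and 285 CPM in control. Delta45 lay far above the rest. The fall of Topbp1 in FL against KD had a log2 change of -0.52 ± 0.147 (edgeR adjusted p = 0.00877). The call was lost without KD replicate 1 (edgeR adjusted p = 0.0702) and in a fit of FL and KD alone (0.0624). Per kilobase of exon, Topbp1 had the highest level of the 34 genes, at 15.9 CPM per kb in FL, 55.5 in delta45, 22.8 in KD and 23.1 in control, and in FL Rad51b the lowest, at 0.182 CPM per kb.

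**Figure D3:**
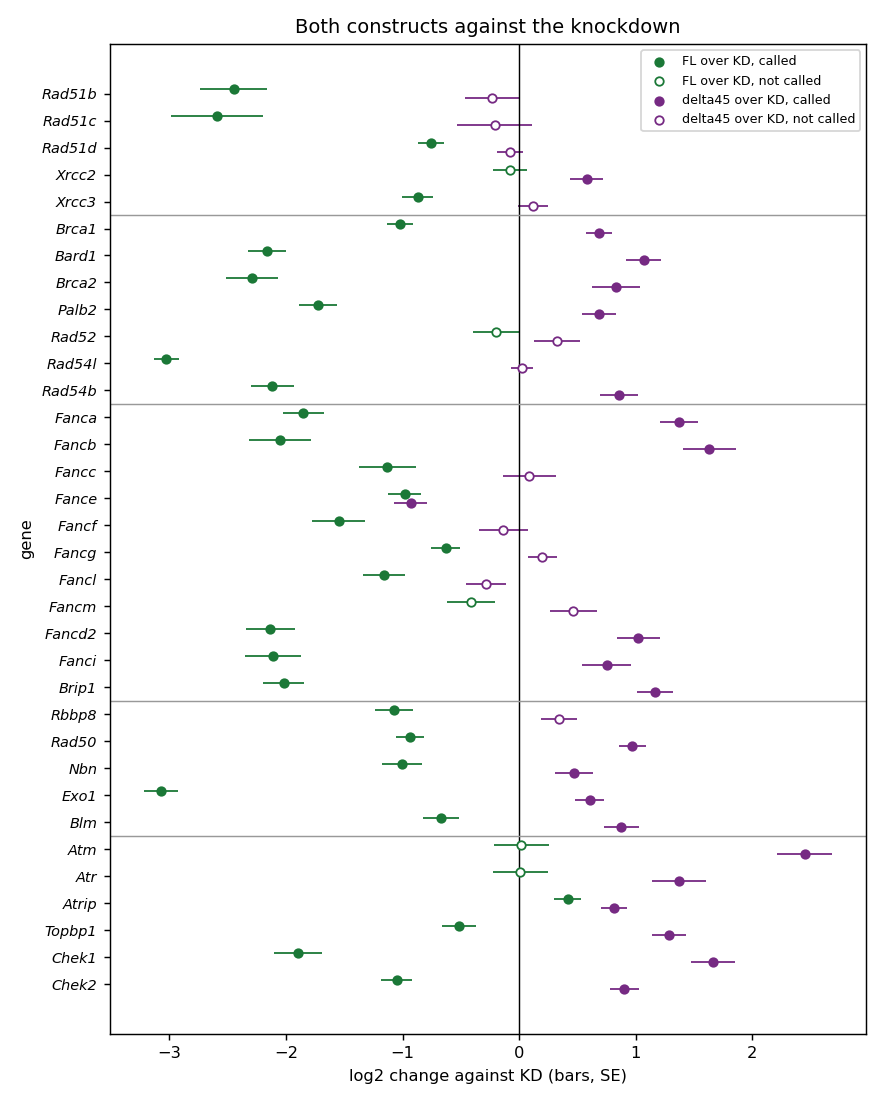
Log2 change of each gene against KD, in FL (green) and delta45 (purple), with the SE as bars; filled points passed the edgeR test at an adjusted p under 0.05. FL points lie left of 0 and delta45 points right of it for most genes. Both points of Fance lie on the left, and both are filled. Both points of Rad51b, Rad51c, Rad51d, Fancf and Fancl lie on the left too, with the delta45 point not called. The FL points of Atm and Atr lie at 0.

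In knockdown against control the genes divided, at shares near those of all tested genes. In KD 11 of the 34 were higher (32.4%) and 6 lower (17.6%), where 25.6% of all tested genes were called higher and 24.1% lower. Their median log2 change was 0.03, beside 0.02 over all genes. The higher genes included Rad54l, Exo1, Bard1 and Rad50. Rad54l averaged 89.2 ± 7.49 CPM in KD and 54.8 ± 2.98 CPM in control (log2 change 0.70 ± 0.0977, edgeR adjusted p = 7.13e-05). Exo1 averaged 48.8 ± 6.64 CPM in KD and 31.6 ± 3.02 CPM in control (log2 change 0.63 ± 0.127, edgeR adjusted p = 0.00121). The log2 change of Bard1 was 0.64 and that of Rad50 was 0.46. Chek1 was called higher in KD (edgeR adjusted p = 0.0362) and was not without KD replicate 1 (0.131) or control replicate 2 (0.136). The lower genes were Fanca, Chek2, Rad51b, Xrcc2, Blm and Atrip. Chek2 fell to 21.8 ± 2.82 CPM in KD, against 39.1 ± 3.94 CPM in control (log2 change -0.84 ± 0.125, edgeR adjusted p = 0.00012), and Xrcc2 to 27.8 ± 4.21 CPM in KD, against 46.3 ± 8.47 CPM in control (log2 change -0.74 ± 0.143, edgeR adjusted p = 0.000927).

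The number of higher genes in KD hung on single libraries: it was 5 without control replicate 2 and 7 without KD replicate 1, whereas the number lower was 6 to 9 over all such fits. DESeq2 called 7 higher and a fit of the 2 groups alone 4. Calls of Xrcc3, Brca2, Fancf, Fancl, Fancm and Chek1 were each lost in at least 1 of these fits, and those of Rad51c (edgeR adjusted p = 0.0603) and Atrip (0.0765) in the fit of the 2 groups alone. Atm missed the threshold in KD against control (log2 change -0.58 ± 0.231, edgeR adjusted p = 0.0531) and passed it without KD replicate 1 (-0.94, edgeR adjusted p = 0.00103), with no low-count filter (0.0237) and with a replicate block (0.0178). The KD libraries also differed in interferon response genes, 8 of which summed to 189 to 192 CPM in FL, 130 to 141 CPM in delta45, 278 to 11840 CPM in KD and 1153 to 1412 CPM in control. Their part in the KD values was not tested.

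The constructs were also set against control. In FL 30 of the 34 were lower and 0 higher by edgeR than in control, where 31.2% of all genes were called lower and 28.1% higher, with a median log2 change of -1.25. The 4 not called were Fancm, Atm, Atr and Atrip, and Atm missed the threshold narrowly (log2 change -0.56 ± 0.232, edgeR adjusted p = 0.0525, and 0.00672 to 0.0395 without KD replicate 1, KD replicate 3 or FL replicate 1). It was also called lower with library totals (0.0174), no low-count filter (0.0266), the 2 groups alone (0.00416), a replicate block (0.0219) and DESeq2 (adjusted p = 0.0444). Rad52 was among the 30 (edgeR adjusted p = 0.0304). Its call was lost without any 1 library of FL or delta45, and without KD replicate 2, control replicate 1 or control replicate 2. The edgeR adjusted p-values there were 0.0501 to 0.144. Fanca and Rad51b fell most, by log2 changes of 3.32 each, Fanca at 9.96 ± 2.23 CPM in FL and 99.1 ± 9.36 CPM in control. In delta45 21 were higher and 2 lower than in control, where 31.9% of all genes were called higher and 32.5% lower, with a median log2 change of 0.63. Chek1 led with a log2 change of 2.18 ± 0.191 (edgeR adjusted p = 6.5e-07), at 93.9 ± 9.58 CPM in delta45 and 20.6 ± 5.49 CPM in control, followed by Atm at 1.87 ± 0.229 and Bard1 at 1.71 ± 0.154. The 2 lower were Rad51b and Fance. The call of Rad51c in delta45 against control (edgeR adjusted p = 0.0334) was lost without control replicate 1 or 2 and without delta45 replicate 1 or 3, with adjusted p-values of 0.0613 to 0.109.

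Other genes of the same pathways came from a list of 26, of which 25 were tested. In FL 19 were lower (76%) and 2 higher (8%) than in KD, with a median log2 change of -0.93. In delta45 14 were higher (56%) and 3 lower (12%) than in KD, with a median of 0.41. Over all tested genes, 31.7% were lower and 26.3% higher in FL against KD. In delta45 against KD 29.2% of all were higher and 30.7% lower. Rpa2, a subunit of the protein that coats single strands, was 6.79-fold lower in FL, with 18.1 CPM in FL and 123 CPM in KD (edgeR adjusted p = 3.58e-09), and Eme1, a nuclease subunit, 6.49-fold lower (edgeR adjusted p = 8.75e-09). The other RPA subunit genes fell less, Rpa1 by a log2 change of 0.58 and Rpa3 by 0.94. Mre11a, the nuclease of the MRN complex, averaged 88.5 CPM in FL, 175 CPM in delta45, 111 CPM in KD and 213 CPM in control, so control and not delta45 was highest. Dmc1, a recombinase of meiosis, did not pass the filter, with 0 reads in FL, 1 in delta45, 1 in KD and 0 in control.

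Of 14 other checkpoint genes 6 were lower (42.9%) and 2 higher (14.3%) in FL than in KD, beside 31.7% and 26.3% of all tested genes. In delta45 11 were higher (78.6%) and 0 lower than in KD by edgeR, beside 29.2% and 30.7% of all. Clspn and Timeless, which work with ATR and CHK1 at the fork, were 6.22-fold and 5.66-fold lower in FL than in KD. Tipin, the partner of Timeless, was 2.56-fold lower. The 10 genes of end joining, the repair route that needs no sister, gave 4 higher (40%) and 2 lower (20%) in FL than in KD, beside 26.3% and 31.7% of all tested genes, with a median log2 change of 0.27. Parp3 averaged 20.8 CPM in FL and 5.70 CPM in KD (log2 change 1.85 ± 0.197, edgeR adjusted p = 5.48e-06), and Poll, a gap-filling polymerase, was 2.04-fold lower. In delta45 7 of the 10 were higher (70%) and 1 lower (10%) than in KD, beside 29.2% and 30.7% of all, with a median of 0.72. The difference between the lists was not tested.

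Replication and mitosis genes moved with the recombination genes in FL. All 16 replication genes were lower in FL than in KD, beside 31.7% of all tested genes, with a median log2 change of -2.31. Their summed level was 601 to 654 CPM in FL, 3475 to 3536 CPM in delta45, 2197 to 2401 CPM in KD and 1502 to 1677 CPM in control. Mcm5 and Mcm3, subunits of the replicative helicase, were 5.36-fold and 5.03-fold lower in FL than in KD. All 11 mitosis genes were lower in FL too, with a median of -1.84, among them Aurkb (5.21-fold) and Cdk1 (4.32-fold). In delta45 against KD 10 of 16 replication genes and 6 of 11 mitosis genes were higher and 0 lower by edgeR. Of all tested genes 29.2% were higher and 30.7% lower there. Erythroid markers went the other way in FL, 6 of 9 higher and 0 lower than in KD, with a median log2 change of 2.04. The shares over all tested genes were 26.3% higher and 31.7% lower. The part of cell cycle state and of maturation in the changes of the 34 genes was not tested.

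**Figure D4:**
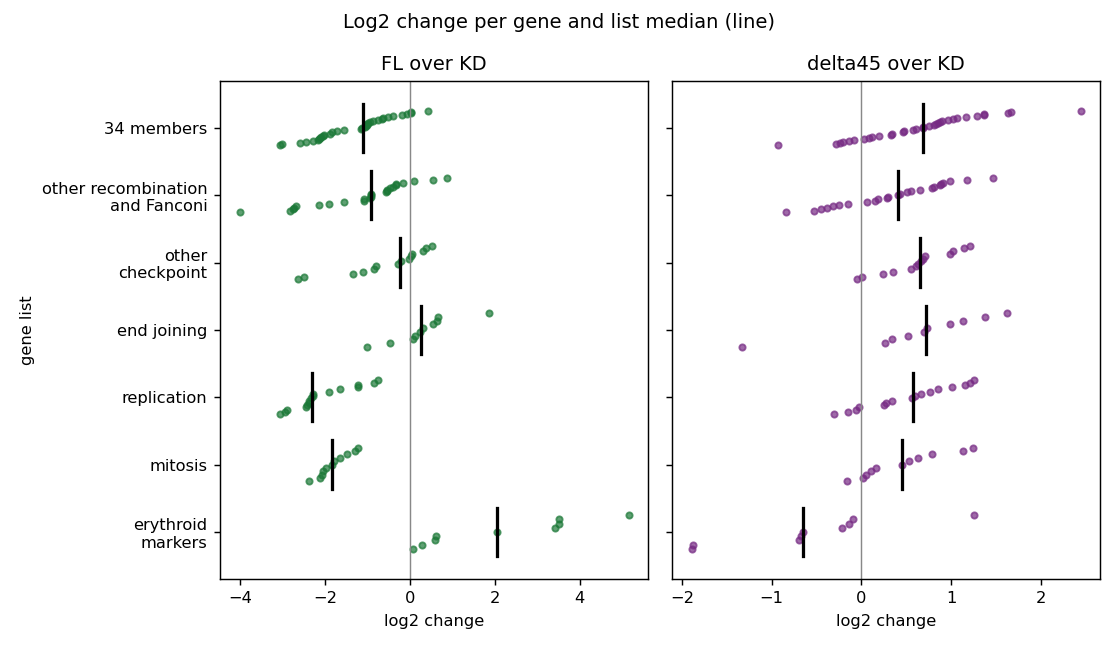
Each point is the log2 change of 1 gene, in FL against KD on the left and delta45 against KD on the right, and the black line is the list's median. In FL the medians are -1.10 for the 34 genes, -2.31 for replication and 0.27 for end joining; in delta45 they are 0.69, 0.58 and 0.72.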

How the data were processed

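Polyadenylated RNA of 12 libraries was sequenced. Per the labels' protocols, RNeasy columns gave the RNA, and TruSeq RNA kit V2 reagents, a chemistry without strand marks, gave the libraries. The authors deposited whole-number counts per Ensembl gene, not normalized. Per the submitters' processing notes, the build was mm9 and the programs DESeq 1.10.1, HTSeq 0.5.3p9, TopHat 1.4.1 and cutadapt 1.1; settings and annotation: not given in the sources used here. Each file ends with 5 tally rows, which entered neither library sizes nor tests; reads aligned to several places took 38.69 to 53.31% of all tallied reads. Symbols matched 32919 of 37991 identifiers.

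Genes were kept by filterByExpr, TMM was used for scaling, and the model was fitted in edgeR 4.0.16 by glmQLFit and glmQLFTest in R 4.3.3, with 4 group means and all 12 libraries. P-values were adjusted by Benjamini-Hochberg over the 12837 genes of each comparison. The SE is the absolute log2 change over the root of F. An exact test of 3 against 3 libraries cannot go below a two-sided p of 0.1. Exon lengths and overlaps came from GENCODE M21 (GRCm38), not the authors' build: 12 of the 34 genes share exon bases with another counted gene, 10 of them with one on the opposite strand. Replicates always differed by more than counting noise (lowest chi-square per degree of freedom 2.223).

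The members, lists and tests were chosen with earlier results of these data known. All members could be named; library values were given for up to 4 per role by their p in FL against delta45 among those called in 4 comparisons or more, and for members called against most of their role. Atm was given in every library as well, after its values were seen. A gene of the other lists that the naming rule covers is not reported here. Up to 4 genes per other list were named by their p in FL against KD. Alternatives covered scaling, test, filter, samples in the fit, a replicate block, a fold threshold of 1.5 and leaving out each library.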

Additional observations from a re-analysis of the deposited data

How the results depend on the processing

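No called direction among the 34 genes turned under these alternatives. Over 34 genes, 6 comparisons and all alternatives, 3922 values kept their side of the threshold, 121 lost the call and 37 gained one. Of the 3922, 54 changed sign, all of them uncalled, such as Xrcc2 in FL against KD (-0.08, and 0.12 without KD replicate 1) and Fancd2 in KD against control (0.09, and -0.13 without KD replicate 1). The test against a fold of 1.5 gave 52 of the losses. It called 0 higher and 2 lower in KD against control, 13 higher in delta45 against KD and 13 higher in delta45 against control. In FL it called 0 higher and 24 lower against KD, 27 lower against delta45 and 20 lower against control. The test against 0 called 28, 33 and 30 lower there. Over all genes the test against 1.5 called 2387, 3510, 3506, 3233, 3835 and 4596 in KD against control, FL against KD, delta45 against KD, FL against delta45, FL against control and delta45 against control, where the test against 0 called 6380, 7445, 7693, 6778, 7616 and 8271. The number higher in KD against control was 7 with DESeq2 and 4 with the 2 groups alone. The number higher in FL against KD was 0 with library totals only.

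Leaving out 1 library at a time gave 5 to 11 higher and 6 to 9 lower in KD against control, 27 to 29 lower in FL against KD, 20 to 24 higher in delta45 against KD, 31 to 33 lower in FL against delta45, 29 to 31 lower in FL against control and 20 to 23 higher in delta45 against control. Whether the replicate numbers pair the libraries was not settled. In their deviations from the group means, 9 of 18 same-numbered pairs correlated above 0.1, and 21 of 36 best matches had the own number. Same-numbered pairs among FL, delta45 and KD correlated at 0.0315 to 0.248. Those with control ran from -0.196 to 0.269. With the replicate block 11 were higher and 8 lower in KD against control, and 28 lower in FL against KD; it called Brip1 lower in KD against control (-0.40, edgeR adjusted p = 0.0493). Depth limits Rad51b and Rad51c most, with 25 and 31 reads over the FL libraries.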
